A study of Mus musculus with 6 samples.

Results

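The TCF/LEF transcription factors and the feedback genes of canonical Wnt signalling were followed as 10 genes, namely Lef1, Tcf7, Tcf7l1, Tcf7l2, Axin2, Nkd1, Nkd2, Apcdd1, Notum and Sp5. Members were taken by name. Every probe set that the platform annotation assigns to exactly 1 of these genes was used, which gave 26 of the 45101 probe sets in the table. The annotation names 18194 genes in all. These 26 name 9 of the 10 genes, and Tcf7 was not analysed here because no probe set in the annotation used names it. For each gene, the probe set whose mean over the 6 arrays was highest is called its main probe set. Of the 26 probe sets, 4 had a mean below 5 (3.20 to 4.81), 1 each for Axin2, Tcf7l2, Nkd1 and Apcdd1, and were not tested, while 22 passed this filter and all 9 genes kept at least 1.

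The arrays hold RNA of tissue labelled as retinal pigment epithelium (RPE), the sheet of pigment cells that backs the photoreceptors, from mouse embryos at embryonic day 13.5. There were 3 arrays of an albino genotype and 3 of a pigmented genotype that served as the control, each from tissue pooled over 3 to 4 littermates, and no treatment is named. The labels name neither the albino mutation nor the strains nor the sex of the embryos. In the protocol the epithelium was freed of its neighbouring eye tissues, whereas the sample descriptions refer to the whole region of the eye.

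In the canonical Wnt pathway a secreted Wnt protein binds Frizzled and LRP receptors and stops a destruction complex from degrading beta-catenin. Beta-catenin then enters the nucleus and joins TCF/LEF proteins, which hold their target genes silent together with Groucho/TLE corepressors when beta-catenin is absent. Several direct targets dampen the pathway in turn, so their transcripts are widely used as readouts of its activity. In the mouse optic cup, beta-catenin is needed for RPE cells to keep their fate, and TCF/LEF sites lie in enhancers of the RPE regulators Mitf and Otx2.

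TCF/LEF proteins recognise the core letters CTTTGA in DNA. Of the 10 genes, 8 had promoters in the RefSeq table used (GRCm38.p6), as 13 windows that run from 250 bases before to 50 bases after a start site, while Apcdd1 and Notum had no entry. The letters CTTTGA, searched on both strands, were present in 2 of the 13 windows and in 16.0% of all 32851 windows of the table. The longer form CTTTGAT, which contains the shorter motif, was found in 1 of the 13 and in 3.73% of all windows. The other longer form, CTTTGAA, was found in 0 of the 13 and in 5.14% of all windows. The windows with a match belong to Sp5 and to the most downstream of the 4 Lef1 start sites, and that of Axin2 is shown beside them as the classical feedback target without a match. Capitals mark CTTTGA or its reverse complement TCAAAG. In the Sp5 window the matches start 204 and 104 bases before the start site on the gene's strand, and the second extends to CTTTGAT. In the Lef1 window they start 180 and 120 bases before it on the opposite strand. A match is a string of letters and not a measured site, and these arrays hold no binding data.
Sp5, chr2:70474673-70474972, plus strand: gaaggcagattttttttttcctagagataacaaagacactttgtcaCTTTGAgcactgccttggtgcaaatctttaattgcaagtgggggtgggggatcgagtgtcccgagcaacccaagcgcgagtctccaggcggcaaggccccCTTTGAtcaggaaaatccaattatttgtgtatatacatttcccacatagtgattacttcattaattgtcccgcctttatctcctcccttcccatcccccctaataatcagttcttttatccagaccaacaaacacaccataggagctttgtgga
Lef1, chr3:131156044-131156343, plus strand: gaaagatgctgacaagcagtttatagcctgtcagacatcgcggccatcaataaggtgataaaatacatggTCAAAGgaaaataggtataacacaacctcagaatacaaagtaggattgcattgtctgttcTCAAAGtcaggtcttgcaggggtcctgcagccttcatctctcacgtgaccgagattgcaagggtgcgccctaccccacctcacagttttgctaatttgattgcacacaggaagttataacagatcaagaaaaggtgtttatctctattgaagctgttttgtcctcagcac
Axin2, chr11:108920099-108920398, plus strand: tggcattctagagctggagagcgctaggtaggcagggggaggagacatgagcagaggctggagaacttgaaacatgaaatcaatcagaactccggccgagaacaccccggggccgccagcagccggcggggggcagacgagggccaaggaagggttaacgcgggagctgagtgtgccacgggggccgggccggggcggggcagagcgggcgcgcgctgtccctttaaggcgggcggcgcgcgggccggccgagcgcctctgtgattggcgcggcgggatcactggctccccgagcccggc

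Values are log2 expression values made by robust multi-array averaging (RMA), and differences are albino minus pigmented. Because probes differ in brightness, a level at 1 probe set says nothing about the amount at another. In bulk tissue, fewer cells of a type and less RNA per cell cannot be told apart. No gene passed the threshold, an adjusted p of 0.05 in limma, among the members (0 of 9, smallest adjusted p = 0.966) or among all genes tested (0 of 12098, 0%). At an unadjusted p under 0.05 stood 4 of the 9 members against 4.79% of all genes. These were Lef1 and Apcdd1, lower in albino pools as were 1.31% of all genes at that level, and Tcf7l2 and Sp5, higher as were 3.47%. Of the 22 tested probe sets 5 stood at that level, against 4.68% of all probe sets. The 3 albino arrays did not overlap the 3 pigmented arrays for 5 of the 9 members, against 11.3% of all genes. They lay below them for 3 members (3.38% of all genes) and above them for 2 (7.97%). Counted by probe set, 5 of 22 lay below (3.44% of all probe sets) and 2 above (7.39%). Most of these 5 belong to Apcdd1, and probe sets of the same gene are not independent measurements.

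Arrays and pools differed in ways that may bear on the values below. Replicate 1 of both genotypes stood apart from the other 4 arrays, and the albino and pigmented replicate 1 arrays correlated at 0.990 with each other but at 0.962 to 0.974 with the other arrays. The 3' minus 5' control probe sets of beta-actin, a sign of RNA quality, gave 1.04, 0.86 and 0.89 for albino replicates 1 to 3 and 1.35, 0.93 and 1.01 for pigmented replicates 1 to 3. Of 18 listed RPE markers 16 were tested and all 16 read lower in albino pools, with list means of 9.23 to 9.41 against 9.41 to 9.65, while Rpe65 and Lrat were below the filter (means 3.23 and 3.02). Of 18 skeletal muscle markers 17 were tested and 16 read higher, with list means of 8.04 to 8.67 against 6.61 to 7.47, and Myf6 was below the filter. Neural retina markers read lower in 8 of 9 tested and periocular mesenchyme markers in 7 of 14. Lens markers read lower in 7 of 7 tested, with a list mean of 5.57 in albino replicate 3 against 7.55 to 7.89 on the other arrays. Macrophage markers were higher in 8 of 10 tested, with list means of 6.83 to 6.88 against 6.64 to 6.69. Of all genes tested, 35.2% read lower in albino pools and most of the rest higher. Of the Y-linked genes 3 were tested, with array means of 7.06 to 7.99 in albino pools and 2.32 to 7.39 in pigmented pools. The part of these markers in the values below was not tested.

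Among the transcription factors, Lef1 read lower and Tcf7l2 higher in albino pools, while Tcf7l1 had no clear direction. Lef1 encodes a factor that is often itself induced by the pathway. Its main probe set read 8.87, 8.86 and 8.94 in albino replicates 1 to 3, and 9.05, 9.40 and 9.22 in the pigmented replicates, the order used throughout. All 3 albino values lay below all 3 pigmented values, and the albino arrays lay within 0.08 of each other. The means were 8.89 ± 0.04 and 9.22 ± 0.18 (SD, n = 3 each). The difference was -0.33 (SE 0.11, 95% confidence interval -0.61 to -0.06), or 1.26-fold, and did not pass (limma adjusted p = 0.976).

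The second Lef1 probe set stood near the filter and did not repeat the gap. The albino values were 5.28, 5.14 and 5.15, the pigmented values were 4.86, 5.41 and 5.31, and the groups overlapped. Its difference was -0.0033 (95% confidence interval -0.38 to 0.37). Albino was higher by 0.42 between the replicate 1 arrays there and lower by 0.27 and 0.16 between the others. Averaging both probe sets gave -0.168 for Lef1, and the per-array Y-linked mean as a covariate gave -0.196.

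Tcf7l2 encodes the family member best known from intestinal stem cells and from several neural and endocrine tissues. Its main probe set read 8.31, 7.98 and 8.06 in albino pools and 7.57, 7.80 and 7.86 in pigmented pools. The groups did not overlap, and the 2 replicate 1 arrays stood at the extremes, albino at the top and pigmented at the bottom. The means were 8.12 ± 0.17 and 7.74 ± 0.15 (SD, n = 3 each). The difference of 0.37 (SE 0.13, 95% confidence interval 0.06 to 0.69), or 1.30-fold, did not pass (limma adjusted p = 0.983). Between arrays of the same number it was 0.74, 0.18 and 0.20, and without both replicate 1 arrays it was 0.19. It was 0.214 with array weights.

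The other 2 tested Tcf7l2 probe sets had the same sign, and their errors were smaller in the fit with the replicate block. One gave 0.29 (SE 0.34, or 0.094 with the replicate number as a block) and the other 0.14 (SE 0.43, or 0.074 with the block). Their arrays numbered 1 read far lower than the rest, at 6.48 and 5.95 against 6.98 to 7.25 for the first and at 4.81 and 4.53 against 5.76 to 5.90 for the second. The main probe set did not show this drop. The probe set below the filter gave 0.18.

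Tcf7l1 acts mainly as a repressor of Wnt targets. Its main probe set read 9.65, 9.75 and 9.73 in albino pools and 9.33, 9.79 and 9.77 in pigmented pools. Apart from pigmented replicate 1, the arrays lay between 9.65 and 9.79. The difference of 0.08 (SE 0.14, 95% confidence interval -0.26 to 0.42) became -0.07 without pigmented replicate 1, -0.04 without both replicate 1 arrays, -0.0251 with array weights and 0.243 after adding the Y-linked covariate. The second probe set gave -0.02 (95% confidence interval -0.70 to 0.66) and read 9.30 and 9.26 on the replicate 1 arrays against 8.50 to 8.59 on the rest.

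**Figure D1:**
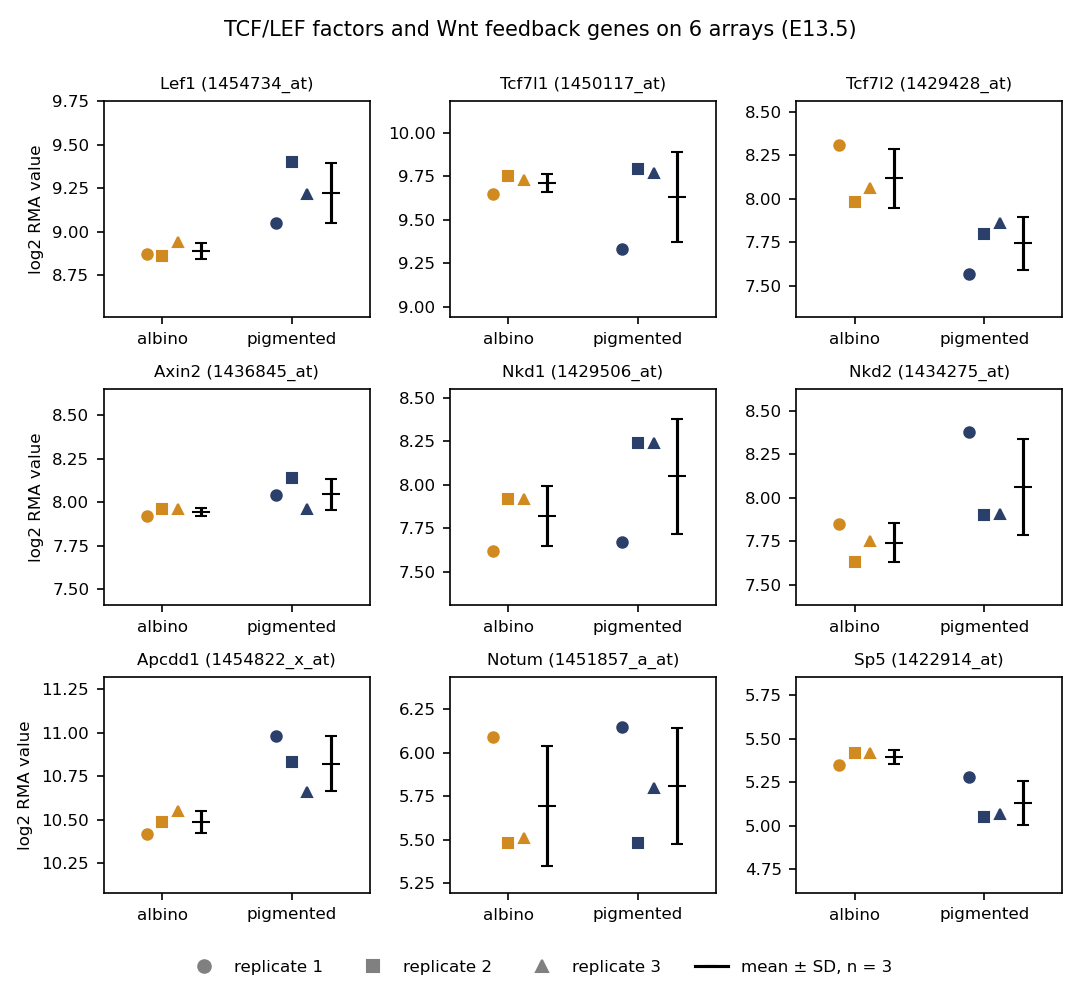
Log2 RMA values (y axis) of the 9 genes at the probe set with the highest mean, by genotype, with 1 symbol per array (circle replicate 1, square replicate 2, triangle replicate 3) and the mean ± SD beside them; all y axes span the same log2 range. The albino arrays lie below all pigmented arrays for Lef1, Nkd2 and Apcdd1 and above them for Tcf7l2 and Sp5, and overlap them for Tcf7l1, Axin2, Nkd1 and Notum.

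Axin2 encodes a scaffold of the destruction complex and is the most widely used transcript readout of canonical Wnt activity. It read 7.92, 7.96 and 7.96 in albino pools and 8.04, 8.14 and 7.96 in pigmented pools. The albino arrays were almost level, and pigmented replicate 3 equalled the highest of them. The means were 7.95 ± 0.02 and 8.05 ± 0.09 (SD, n = 3 each). The difference was -0.10 (SE 0.09, 95% confidence interval -0.31 to 0.11, limma adjusted p = 0.999). It was -0.0533 without pigmented replicate 2, -0.0438 after adding the Y-linked covariate and -0.153 after cyclic loess scaling. Replicate 1 stood within 0.04 of the mean of replicates 2 and 3 in each genotype here. The other Axin2 probe set, with a mean of 3.52, gave -0.20.

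Nkd1 and Nkd2 encode paralogous proteins that bind Dishevelled and are induced by the pathway they inhibit. Nkd2 read 7.85, 7.63 and 7.75 in albino pools and 8.38, 7.90 and 7.91 in pigmented pools. The groups did not overlap, although albino replicate 1 and pigmented replicate 2 were only 0.05 apart. The means were 7.74 ± 0.11 and 8.06 ± 0.27 (SD, n = 3 each). The difference was -0.32 (SE 0.15, 95% confidence interval -0.69 to 0.05, limma adjusted p = 0.999), and it was -0.162 without pigmented replicate 1 and -0.496 after adding the Y-linked covariate. The 3 other Nkd2 probe sets gave -0.27, -0.19 and -0.11, so all 4 had the same sign.

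Nkd1 was lower by a similar size at its main probe set, but its groups overlapped. It read 7.62, 7.92 and 7.92 in albino pools and 7.67, 8.24 and 8.24 in pigmented pools. Both replicate 1 arrays were low, and within the remaining 4 arrays the genotypes were 0.32 apart. The difference over all 6 arrays was -0.23 (SE 0.19, 95% confidence interval -0.67 to 0.21, limma adjusted p = 0.999). It ranged from -0.42 without pigmented replicate 1 to -0.13 without albino replicate 1, was -0.135 without pigmented replicate 2 or 3, and was -0.0334 with the Y-linked covariate. The other tested Nkd1 probe sets gave -0.25 and -0.36, and the one below the filter gave -0.27.

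Apcdd1 encodes a membrane glycoprotein that binds Wnt and LRP proteins and inhibits signalling in the cell that makes it. Its main probe set read 10.42, 10.49 and 10.55 in albino pools and 10.98, 10.83 and 10.66 in pigmented pools. The 3 albino values lay below all pigmented values, and the gap between arrays of the same number was 0.56, 0.34 and 0.11. The means were 10.49 ± 0.07 and 10.82 ± 0.16 (SD, n = 3 each). The difference was -0.34 (SE 0.11, 95% confidence interval -0.60 to -0.07), or 1.26-fold, and did not pass (limma adjusted p = 0.966). Without both replicate 1 arrays it was -0.225.

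The probe sets of Apcdd1 gave one sign throughout. The 4 other tested ones gave -0.33, -0.28, -0.21 and -0.19, and the one below the filter gave -0.14. At 2 of these 4 the groups also did not overlap. The main probe set is of the _x_at type, whose probes can match other transcripts. The highest _at probe set, free of that limit, read 8.71, 8.70 and 8.65 for the albino pools and 9.08, 9.0 and 8.82 for the pigmented pools. Its groups did not overlap, and its difference was -0.28 (SE 0.10). Several of these probe sets were designed from the same transcript sequence, so they are not independent measurements.

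Notum encodes a secreted enzyme that strips the lipid from Wnt proteins. Its only probe set read 6.09, 5.48 and 5.51 in albino pools and 6.15, 5.48 and 5.80 in pigmented pools. The replicate 1 arrays were highest in both genotypes, and the groups overlapped. The difference of -0.12 (SE 0.23, 95% confidence interval -0.67 to 0.43) had an SE of 0.078 with the replicate number as a block, and neither fit passed (limma adjusted p = 0.999 and 0.449). It was 0.0533 without pigmented replicate 1, -0.01 and -0.025 without albino replicate 2 or 3, -0.315 without albino replicate 1, -0.387 with the Y-linked covariate and -0.282 when pigmented replicate 2 was left out.

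Sp5 encodes a zinc finger factor that is a direct Wnt target and represses other targets. Its probe set was the dimmest of the 9 main ones, with a mean of 5.27, just above the filter. It read 5.35, 5.42 and 5.42 in albino pools and 5.28, 5.05 and 5.07 in pigmented pools. The albino values lay above all pigmented values, by as little as 0.07 between the replicate 1 arrays. The means were 5.40 ± 0.04 and 5.13 ± 0.13 (SD, n = 3 each). The difference of 0.26 (SE 0.10, 95% confidence interval 0.02 to 0.50) did not pass (limma adjusted p = 0.999). Sp5 lay on the other side of 0 from Lef1 and from the 5 feedback inhibitors Axin2, Nkd1, Nkd2, Apcdd1 and Notum.

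**Figure D2:**
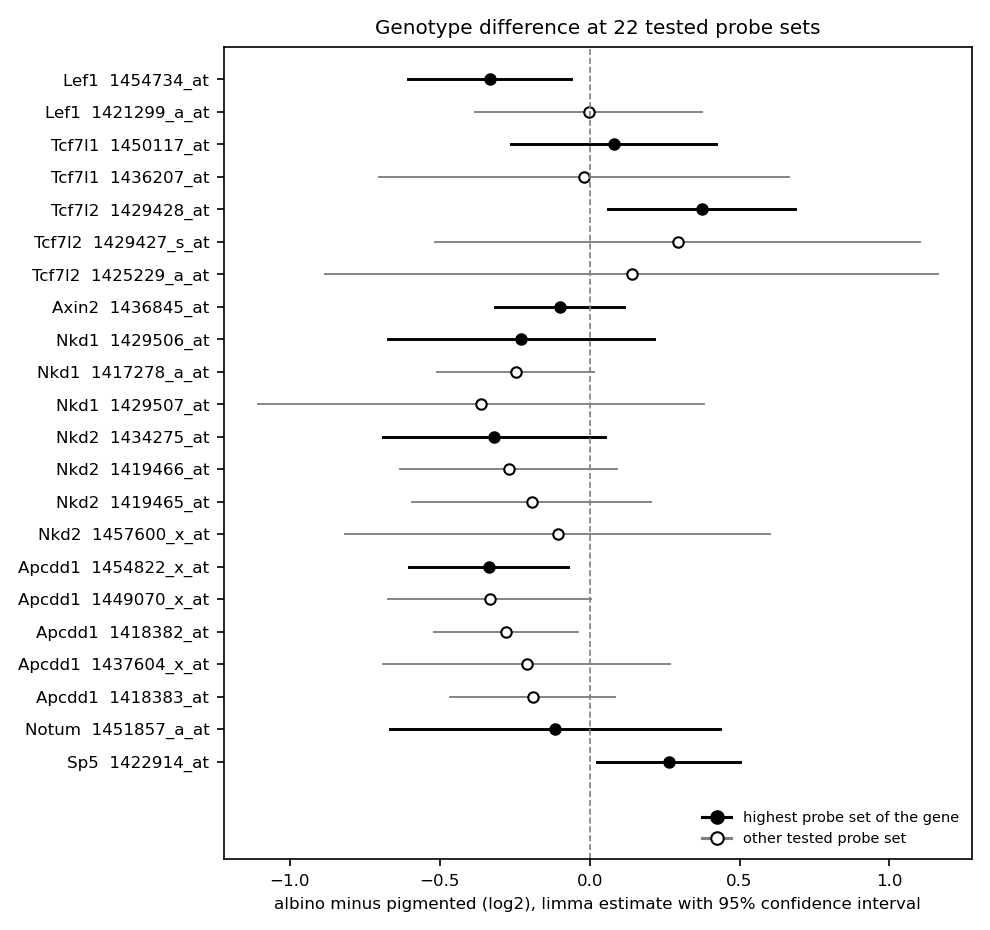
Albino minus pigmented (x axis, log2) at the 22 tested probe sets, with the 95% confidence interval from limma; filled points mark the highest probe set of each gene and open points the others. All 12 tested probe sets of Nkd1, Nkd2 and Apcdd1 lie left of 0, those of Tcf7l2 and Sp5 lie right of it, and those of Tcf7l1 lie on both sides.

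Over the 9 genes, 6 read lower in albino pools, or 66.7%, against 35.2% of all genes tested. Their median difference was -0.12 (range -0.34 to 0.37) against 0.04 over all genes. The share of all genes that read lower depended on the scaling and was 48.2% after cyclic loess and 33.0% after median centring, while 6 of the 9 members were lower under each. Of the 579 genes at an unadjusted p under 0.05, 72.5% were higher in albino pools, a share that was 52.8% after cyclic loess and 76.0% after median centring. The members at that level were 2 lower and 2 higher as reported, 3 lower and 1 higher after cyclic loess, and 2 of each after median centring. With the Y-linked covariate the members' median was -0.0438, and with probe sets of a mean of at least 6, which leaves out Notum and Sp5, it was -0.23. These counts describe genes chosen with earlier results of the data known and are not a test.

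**Figure D3:**
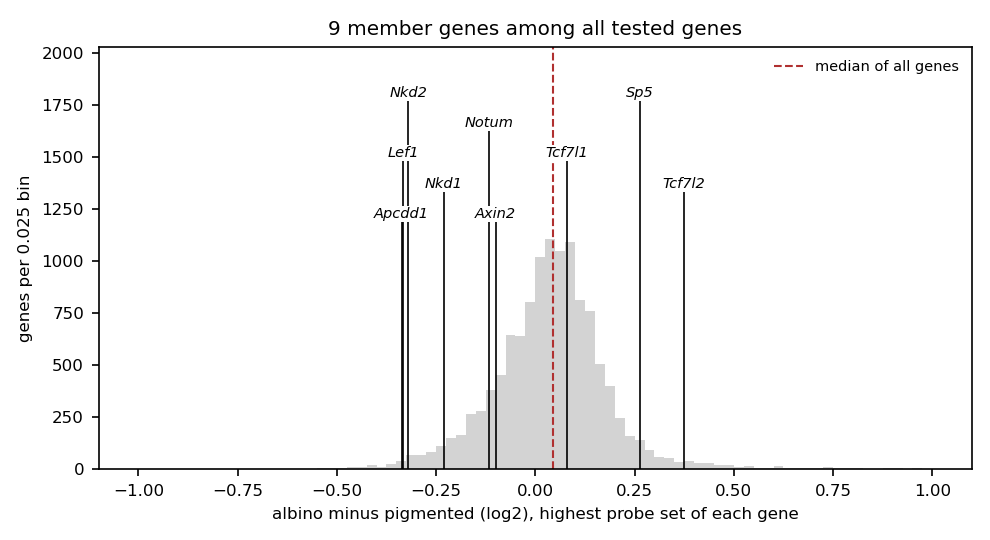
Distribution of albino minus pigmented (x axis, log2, highest probe set of each gene) over all 12098 genes tested, as genes per bin (y axis); 77 genes beyond 1 log2 unit are not drawn. Vertical lines mark the 9 members and the dashed line the median of all genes, 0.04; Apcdd1, Lef1 and Nkd2 lie together at -0.34 to -0.32 and Tcf7l2 lies at 0.37.

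Replicate 1 was set against the mean of replicates 2 and 3 within each genotype. This offset had the same sign in both genotypes at 18 of the 22 tested probe sets, higher at 11 and lower at 7, and it ranged from -1.24 to 0.89. The share over all tested probe sets was not counted. Deviations of the replicate 1 arrays from their genotype mean correlated at 0.863 over all of them, so the count is not particular to these genes. At the second Tcf7l1 probe set replicate 1 was higher by 0.79 in albino and 0.70 in pigmented pools, whereas at the main one it was lower by 0.09 and 0.45. Nkd1 held a probe set with offsets of 0.62 and 0.89 beside its main one with -0.30 and -0.57. Nkd2 likewise held one with 0.89 and 0.65 beside one with -0.44 and -0.17. So within 3 of the 6 genes with at least 2 tested probe sets, replicate 1 was higher in both genotypes at one probe set and lower in both at another. The same held for 37.2% of the 5348 genes with at least 2 tested probe sets. The span of these offsets between the probe sets of a gene had a median of 1.04 over the 6 members and 0.37 over the 5348 genes. Both the span and mixed signs become likelier with more tested probe sets in a gene, which were 2 to 5 in these members. The 5348 genes were not matched for this number.

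**Figure D4:**
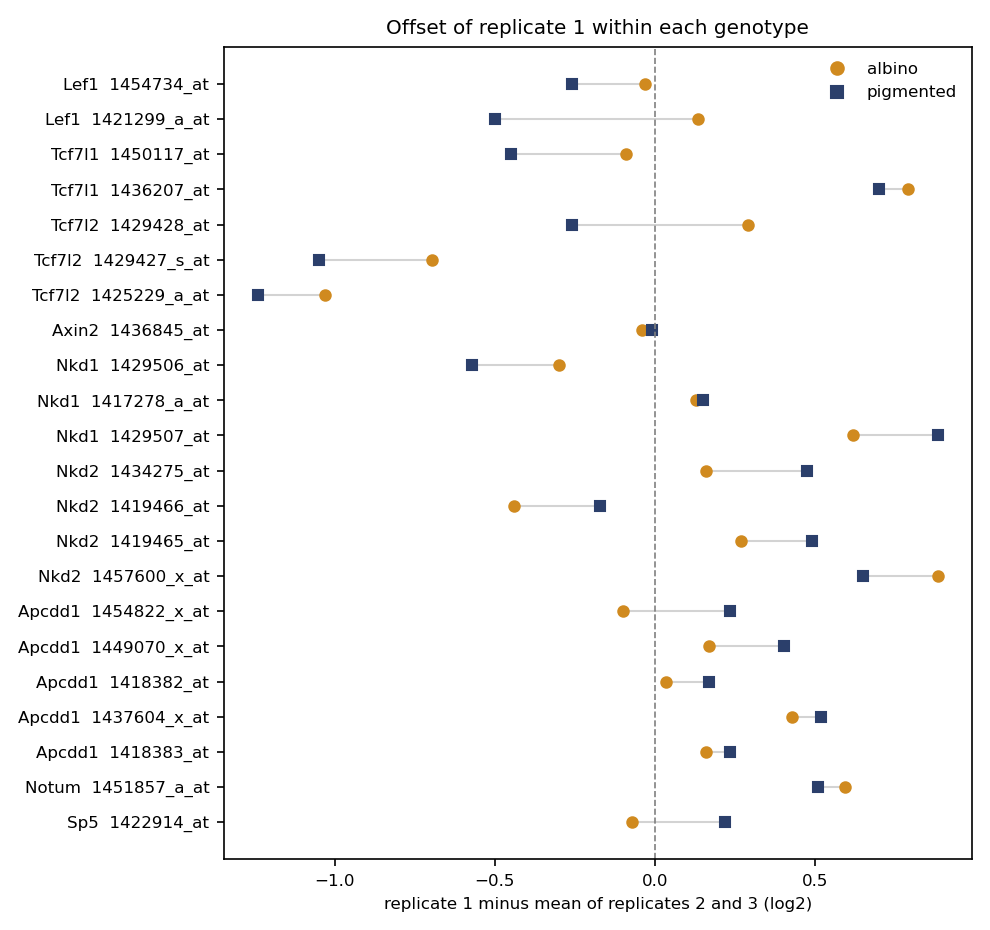
Replicate 1 minus the mean of replicates 2 and 3 (x axis, log2) at the 22 tested probe sets, for albino (circles) and pigmented arrays (squares). The 2 genotypes lie on the same side of 0 at 18 probe sets, the offsets run from -1.24 at a Tcf7l2 probe set to 0.89 at probe sets of Nkd1 and Nkd2, and they differ in sign between probe sets of Tcf7l1, Nkd1 and Nkd2.

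The replicate 1 arrays of both genotypes deviated together, while pairing of the arrays numbered 2 or 3 was not shown. A fit with the replicate number as a block was also made. With it 6 of the 9 members stood at an unadjusted p under 0.05, against 16.9% of all genes. They were Lef1, Nkd1, Nkd2 and Apcdd1, lower in albino pools, and Tcf7l2 and Sp5, higher. After adjustment over all probe sets 0 of 9 passed with the block (smallest limma adjusted p = 0.206, for Lef1).

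Partners of the TCF/LEF proteins and the rest of the pathway were described by 4 lists. Of the nuclear cofactors of beta-catenin 25 were tested, 18 read higher and 7 lower in albino pools, and 0 passed. Hic1, a transcriptional repressor gene known to bind TCF proteins, gave 0.38 (SE 0.10) and the corepressor gene Ctbp2 gave -0.18 (SE 0.10). Of the destruction complex and Dishevelled genes 21 of 24 were tested, 14 higher and 7 lower, and 0 passed. Dact1, which encodes a Dishevelled-binding protein, gave 0.23 (SE 0.13) and Apc, a scaffold gene of the complex, gave -0.11 (SE 0.09). Both lists had medians close to that of all genes, at 0.03 and 0.04. The shares that read lower were 28% and 33.3%, against 35.2% of all genes.

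Of other Wnt targets and feedback genes 16 of 20 were tested, 10 lower and 6 higher with a median of -0.06, and 0 passed. The receptor gene Lgr5 read 6.58, 6.77 and 6.37 in albino pools and 5.60, 6.23 and 6.30 in pigmented pools, a difference of 0.53 (SE 0.21). The secreted inhibitor gene Wif1 read 7.92, 8.53 and 8.30 against 8.36, 9.0 and 8.64, a difference of -0.42 (SE 0.22). Neither passed, and the groups of Wif1 overlapped while those of Lgr5 did not. Of the ligands and receptors 30 of 36 were tested, 16 higher and 14 lower, and 0 passed. The R-spondin gene Rspo2 gave 1.21 (SE 0.23, limma adjusted p = 0.507) and the R-spondin receptor gene Lgr4 gave -0.20 (SE 0.09).

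Genes whose values ran most like those of Axin2 and Lef1 were sought over the 6 arrays. For Axin2 these were Trpm7 (Pearson r = 0.992), Chst1 (0.982) and Mex3b (0.969). For Lef1 they were Ddx19b (0.993), Golga7b (0.975) and Pitpnc1 (0.974). The values rest on 6 points that share the genotype gap and the replicate numbers, and the best of 12098 genes were taken, so they are a description. Among the pairs of members, Lef1 and Axin2 correlated at 0.794 over the same 6 arrays. The strongest value of all these pairs was -0.946, for Lef1 and Sp5.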

How the data were processed

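Expression was measured on 6 arrays, 3 per genotype, with labelled cRNA primed at the 3' end (total RNA input 100 ng). The deposited values are log2 RMA values, made with Affymetrix Expression Console 1.1 and RMA per the submitters' processing notes. RMA corrects background, quantile-normalizes and summarises probes, which removes any change shared by all transcripts. A joint run of all arrays is not stated in the labels. Array medians were 5.19 to 5.22, and the number of arrays limits the precision.

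Gene names come from the platform annotation (34945 probe sets with 1 gene, 932 with several, 9160 with none). The 64 control probe sets and those with a mean below 5 were excluded, so 23591 probe sets of 12098 genes remained. limma 3.58.1 in R 4.3.3 (lmFit, eBayes, two-sided) gave all p-values, adjusted by Benjamini-Hochberg over all 23591 probe sets, with a threshold of 0.05. Pools are labelled biological replicates.

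Members and lists were chosen with earlier results of these data known. From each other Wnt list the text names the gene with the smallest p on each side, and for Axin2 and Lef1 the 3 most correlated genes. Genotypes share replicate numbers, with no shared source in the labels. Deviations of same-numbered arrays from their genotype mean correlated at 0.863, 0.687 and 0.448 for replicates 1, 2 and 3. Because each deviation is taken from the genotype mean, the offset shared by the replicate 1 arrays also raises the values for replicates 2 and 3. These correlations therefore cannot show pairing of the arrays numbered 2 or 3. Errors, intervals and p-values come from the fit without the replicate block unless the block is named. Alternatives were scaling, filters, probe set choice, blocks, a Y-linked covariate, array weights and leaving out arrays.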

Additional observations from a re-analysis of the deposited data

How the results depend on the processing

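No probe set passed an adjusted p of 0.05 in limma under any alternative run. The smallest adjusted p over all probe sets was 0.50 in the reported fit, with 1104 of 23591 at an unadjusted p under 0.05, and 0.192 with the replicate block, with 4243. It was 0.0723 with a block for replicate 1 against the others, with 4952, and 0.0659 with array weights, with 3510. Among the members 0 of 9 passed under every alternative, with the smallest adjusted p at 0.107 (array weights, Sp5). The replicate block changed no call. Members lower in albino pools numbered 5 to 7 under all alternatives, with 7 to 9 members measured. Their median difference of -0.117 became -0.23 with a mean of at least 6 and -0.0438 with the Y-linked covariate, and ranged from -0.135 to -0.103 when 1 array was left out. The sign of Tcf7l1 turned without both replicate 1 arrays (-0.04) and with array weights (-0.0251), and its values without 1 array ranged from -0.07 to 0.16. Notum turned without pigmented replicate 1 (0.0533), with a range of -0.315 to 0.0533 when 1 array was left out. The other 7 genes kept their sign in every alternative that measured them. Notum was not measured without probe sets ending in _x_at, _s_at or _a_at, and neither Notum nor Sp5 with a mean of at least 6. Signal close to the filter limits Sp5 (mean 5.27), and 3 pools a genotype limit all values.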
